A study of Homo sapiens with 4 samples.

Results

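The genes described here encode ATP-dependent chromatin remodellers, their subunits, and bromodomain proteins. They were chosen by symbol alone: the SMARC, ARID, CHD, INO80, BRD and BAZ names, with ATRX, BPTF, PBRM1 and ACTL6A. The rule found 49 of the 13957 genes in the table, of which 48 are protein-coding and 1, SMARCE1P5, is a pseudogene. The values below are for 48 of the 49. The annotation holds 58 symbols of this form. CHD5, INO80B and ARID3C, and the other 6 SMARCE1 pseudogenes, were not in the table.

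The cells were MDA-MB-231 Fluc, a triple-negative human breast cancer line that carries an inserted luciferase gene for imaging in animals. In the experiment 2 samples were treated with 50 μM cordycepin (3′-deoxyadenosine, an adenosine analogue that inhibits polyadenylation) and 2 received the vehicle, DMSO, each for 2 h. Total RNA was depleted of ribosomal RNA and sequenced as stranded paired-end libraries. The labels do not say whether the 2 samples of a group came from separate cultures. For each gene the value used was the authors' mean level over all 4 libraries, as log2 CPM, where CPM is a gene's count scaled to a common library total. This mean mixes both treatments, so no effect of cordycepin is given. With no values per library, the depth is unknown, no error stands beside a level, and no difference between genes was tested. Of the markers, the mesenchymal genes VIM (10.45 log2 CPM), CD44 (10.57 log2 CPM) and AXL (11.01 log2 CPM), with CAV1 and EGFR, were high. CDH1 and EPCAM, both at 3.68 log2 CPM, lay below the median of the table (4.58 log2 CPM) but above its first quartile (2.88 log2 CPM). GATA3, at 4.48 log2 CPM, was near that median. ESR1 and PGR were not in the table. The leukocyte, endothelial and hepatocyte markers PTPRC, CD3E, PECAM1, CDH5 and ALB were not in the table either. These markers do not tell this line from other mesenchymal, triple-negative lines.

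Remodellers use ATP to slide, eject or exchange nucleosomes, and so set how accessible DNA is to transcription factors and polymerases. SWI/SNF (BAF and PBAF) opens chromatin, ISWI spaces nucleosomes, CHD proteins include the motor of the NuRD deacetylase complex, and INO80 moves nucleosomes and acts on the histone variant H2A.Z. Bromodomains bind acetylated lysine. BET proteins such as BRD2 and BRD3 carry a pair of them and tie acetylated chromatin to transcription elongation. Subunits of SWI/SNF are frequently mutated in cancer.

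Most of these genes were well expressed. Their median level was 5.93 log2 CPM, against 4.58 log2 CPM over all genes in the table and 4.95 log2 CPM over its protein-coding genes. Of the 48 members, 34 (70.8%) lay above the median of the table, as did 56.8% of all protein-coding genes. Between the quartiles of the table, from the lowest genes to the highest, lay 3, 11, 12 and 22 members. The 16 ATPases among them had a median of 6.02 log2 CPM and the 14 bromodomain genes a median of 6.29 log2 CPM.

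The members were also long, which matters because a long transcript yields more reads. The length given in the table had a median of 8626 bases for members, 4839 bases for all genes and 5341 bases for protein-coding genes. The canonical transcript had a median of 5806, 2992 and 3445 bases. Of the 48 members, 16 spanned over 100 kb of the genome, a larger share than the 17.2% of all genes. Divided by the table length, the median level of the members was 2.30 log2 CPM per kb. It was 2.43 log2 CPM per kb for all genes and 2.52 for protein-coding genes. Per kb of the longest transcript the members had 3.03, all genes 2.84 and protein-coding genes 2.95 log2 CPM per kb. The members were thus well above the other genes in reads per gene, while per length the difference was small and its sign depended on the length used.

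**Figure D1:**
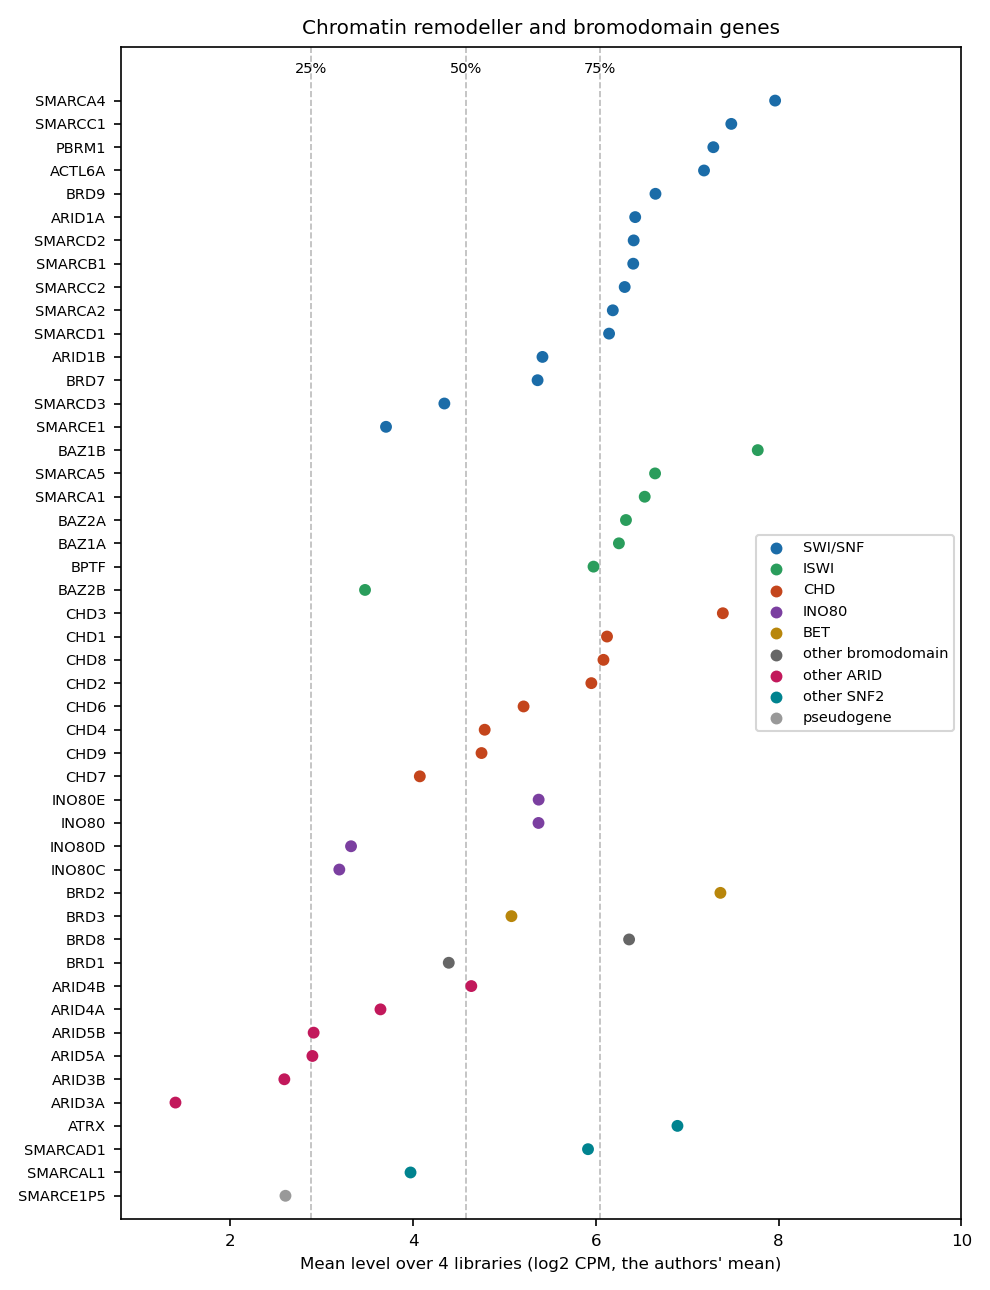
Mean level of each of 48 members over 4 libraries (x axis, log2 CPM, the authors' mean), grouped by complex, with dashed lines at the quartiles of all 13957 genes. SMARCA4 is the highest at 7.96 log2 CPM and ARID3A the lowest at 1.40 log2 CPM, and the points have no error bars, as libraries are not given singly.

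The median level of SWI/SNF and ISWI members was above that of CHD and INO80 members. Per kb of table length, however, SWI/SNF had the lowest median of these once other listed genes were counted. The median per kb of table length was 3.31 log2 CPM per kb for the 7 ISWI genes and 3.12 for the 15 SWI/SNF genes. It was 1.71 log2 CPM per kb for the 4 INO80 genes and 1.55 for the 8 CHD genes. Of the BET genes, BRD2 was at 4.48 and BRD3 at 2.29 log2 CPM per kb, and no median is given for them. SWI/SNF and ISWI also had the higher medians per kb of the longest transcript, at 4.03 and 3.69, against 2.39 for CHD and 2.10 log2 CPM per kb for INO80. The INO80 median rested on few genes and was 2.99 log2 CPM per kb of the canonical transcript, and 2.58 per kb of table length without INO80C. Genes of 1 complex nevertheless overlapped widely with those of the others. SWI/SNF genes ran from -0.50 to 5.31, and CHD genes from -0.02 to 4.02 log2 CPM per kb. With listed genes that the symbol rule leaves out, the medians per kb of table length were 3.47 log2 CPM per kb for ISWI and 3.08 for CHD. They were 2.87 for INO80 and 2.44 for SWI/SNF, which was then the lowest. The genes added under CHD were NuRD subunits and CHD1L, and those under INO80 included SRCAP, of the SRCAP complex. Each was counted under a single complex, so these medians are not of strict complex members. Medians with those genes were not compared on the other lengths.

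**Figure D2:**
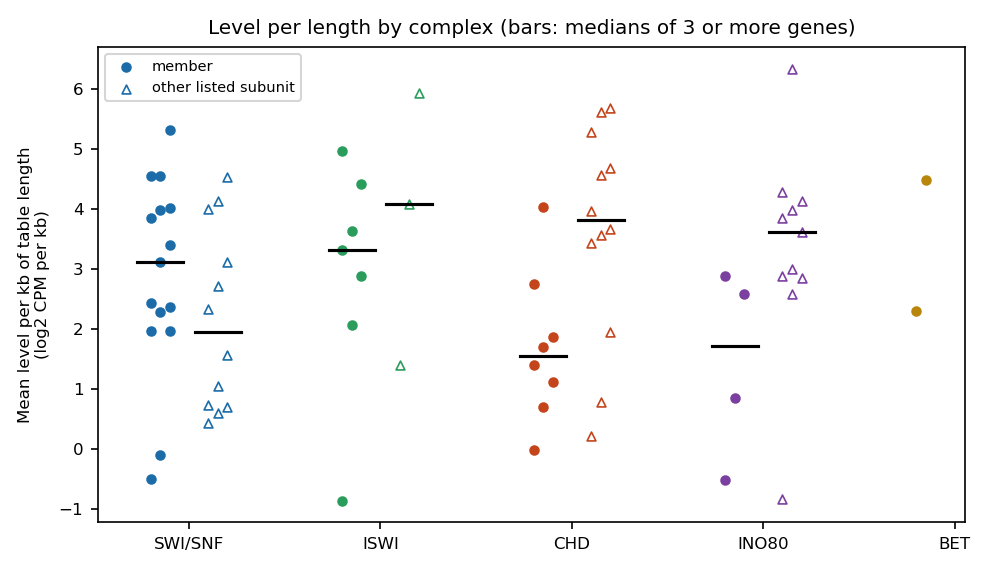
Mean level per kb of table length (y axis, log2 CPM per kb) in 5 complexes, with circles for genes found by the symbol rule, triangles for other listed genes and bars at the medians of 3 or more genes. Medians of the circles are between 3.12 and 3.31 in SWI/SNF and ISWI and between 1.55 and 1.71 in CHD and INO80, and the points of all 5 complexes overlap.

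In SWI/SNF, 13 of the 15 genes lay above the median of the table. The catalytic subunit SMARCA4 (BRG1; chromosome 19, 10960825 to 11079426, plus strand, GRCh38) had the highest level per gene of all members, 7.96 log2 CPM. Its alternative, SMARCA2 (BRM), had 6.19 log2 CPM, and per kb of table length SMARCA4 was 2.01 log2 units, or 4.04-fold, above SMARCA2. Only 1 of these motors is present in any one complex. The actin-related ACTL6A (7.18 log2 CPM) had the highest level per length of all members, 5.31 log2 CPM per kb. It is found in SWI/SNF and in INO80, whereas its neuronal counterpart ACTL6B was not in the table.

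SMARCC1 and SMARCC2 are core scaffold subunits. SMARCC1 (7.48 log2 CPM) exceeded SMARCC2 (6.32 log2 CPM) by 1.43 log2 units per kb of table length, and by 0.85 per kb of the longest transcript. Among the SMARCD subunits, which link the core to transcription factors, SMARCD2 was above SMARCD1 by 0.69 and SMARCD1 above SMARCD3 by 1.89 log2 units per kb of table length. The first of those gaps shrank to 0.12 log2 units per kb of the longest transcript, but was 0.68 per kb of the canonical transcript. On the same lengths SMARCD1 exceeded SMARCD3 by 1.36 and 1.02 log2 units. SMARCB1, the core subunit lost in rhabdoid tumours, was at 6.41 log2 CPM.

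Other subunits define the SWI/SNF subtypes. ARID1A (6.43 log2 CPM), found in canonical BAF, was above its paralog ARID1B (5.42 log2 CPM) by 2.54 log2 units per kb of table length and by 1.35 per kb of the longest transcript. ARID1B had the greatest table length of all members, 45931 bases, while its longest single transcript was 10813 bases. Of the subunits of PBAF, PBRM1, which holds several bromodomains, and the listed PHF10 were at 4.01 and 4.52 log2 CPM per kb of table length. ARID2 (0.69 log2 CPM per kb) and BRD7 (2.28 log2 CPM per kb), which belong to PBAF too, were lower. BRD9, of the non-canonical form, was at 6.65 log2 CPM and its partners BICRA and BICRAL at 3.95 and 4.34 log2 CPM. The PHD-finger subunits DPF1 and DPF3, typical of neurons and muscle, were at 2.86 and 3.22 log2 CPM, and the widely expressed DPF2 at 5.45 log2 CPM.

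Both ISWI motors lay in the top quartile of the table. SMARCA5 (SNF2H) had 6.65 log2 CPM and SMARCA1 (SNF2L) 6.53 log2 CPM, but per kb of table length SMARCA1, with 4363 bases of exon against 8146, was 0.79 log2 units above SMARCA5. BAZ1B, the WSTF partner of SMARCA5, was the second highest member at 7.77 log2 CPM and was 1.64 log2 units per kb above BAZ1A, the ACF1 partner. The widest gap between paralogs was between BAZ2A (TIP5, of the nucleolar complex that silences ribosomal DNA) at 6.33 log2 CPM and BAZ2B at 3.47 log2 CPM, 3.75 log2 units or 13.4-fold per kb of table length. BPTF, the large NURF subunit that reads methylated histone H3, was at 5.97 log2 CPM. Of the listed partners, POLE3 (7.31 log2 CPM) and CHRAC1 (5.81 log2 CPM), histone-fold proteins of the CHRAC complex, both lay above the median of the table.

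In the CHD family, CHD3 stood at 7.39 log2 CPM and CHD4, the other main NuRD motor, at 4.78 log2 CPM, and per kb of table length CHD3 was 2.91 log2 units above CHD4. CHD4 shares 90.1% of its canonical transcript with another gene. If all its reads came from the bases that it does not share, the order would reverse (CHD3 minus CHD4, -0.91 log2 units). Reads on those bases alone were not counted. Of the 12 other listed genes of this family and NuRD, 9 lay in the top quartile of the table. They included the histone-binding RBBP7 (8.49 log2 CPM), the deacetylases HDAC2 (7.90 log2 CPM) and HDAC1 (7.66 log2 CPM), and MTA2 (7.36 log2 CPM). CHD1, which reads trimethylated lysine 4 of histone H3, was at 6.12 log2 CPM, and its close relative CHD2 at 5.95 log2 CPM. CHD2 was 0.87 log2 units lower per kb of table length, but 0.32 lower per kb of the longest transcript. In the subfamily of large CHD proteins the order per kb of table length was CHD8 (1.69), CHD6 (1.40), CHD9 (0.70) and CHD7 (-0.02 log2 CPM per kb). Per kb of the longest transcript the order was the same, but CHD8 (3.00) lay 1.21 log2 units above CHD6 (1.79 log2 CPM per kb). CHD7, the gene mutated in CHARGE syndrome, was the only CHD member below the median of the table, at 4.07 log2 CPM.

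The INO80 members had a median of 4.35 log2 CPM, and none lay in the top quartile of the table. The ATPase INO80 and the subunit INO80E both had 5.37 log2 CPM, whereas INO80D (3.32 log2 CPM) and INO80C (3.19 log2 CPM) lay below the median of the table. Per kb of table length the members reached at most 2.87 log2 CPM per kb, in INO80E, which was at 5.17 per kb of its canonical transcript. ACTL6A, also found in INO80, was counted in SWI/SNF only. The 11 other listed genes of this group ran from -0.83 (SRCAP) to 6.33 log2 CPM per kb (RUVBL2), with a median of 3.62. The AAA+ ATPases RUVBL2 and RUVBL1, which form a ring in INO80, SRCAP and TIP60 complexes, had 6.33 and 3.85 log2 CPM per kb, the DNA-binding YY1 had 3.98, and TFPT and ACTR8, subunits of INO80 itself, had 4.13 and 2.99 log2 CPM per kb.

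Both BET genes described here, BRD2 (7.36 log2 CPM) and BRD3 (5.08 log2 CPM), lay above the median of the table. BRD2 exceeded BRD3 by 2.18 log2 units per kb of table length. The testis gene BRDT was not in the table. Of the bromodomain genes outside BET, BRD8, a TIP60 complex subunit, was at 6.36 log2 CPM and BRD1, a scaffold of histone acetyltransferases, at 4.39 log2 CPM.

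The remaining ARID genes were the low end of the list. The DNA-binding factors of the ARID3, ARID4 and ARID5 families, which are not remodeller subunits, had a median of 2.90 log2 CPM and only ARID4B (4.64 log2 CPM) lay above the median of the table. ARID3A, at 1.40 log2 CPM, was the lowest member, also per kb of table length (-1.45 log2 CPM per kb). Of the other SNF2-family enzymes, ATRX, which with DAXX deposits histone H3.3 in repeats, was at 6.89 log2 CPM. SMARCAD1, linked to heterochromatin maintenance, was at 5.91 log2 CPM and SMARCAL1, an annealing helicase at stalled replication forks, at 3.97 log2 CPM.

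**Figure D3:**
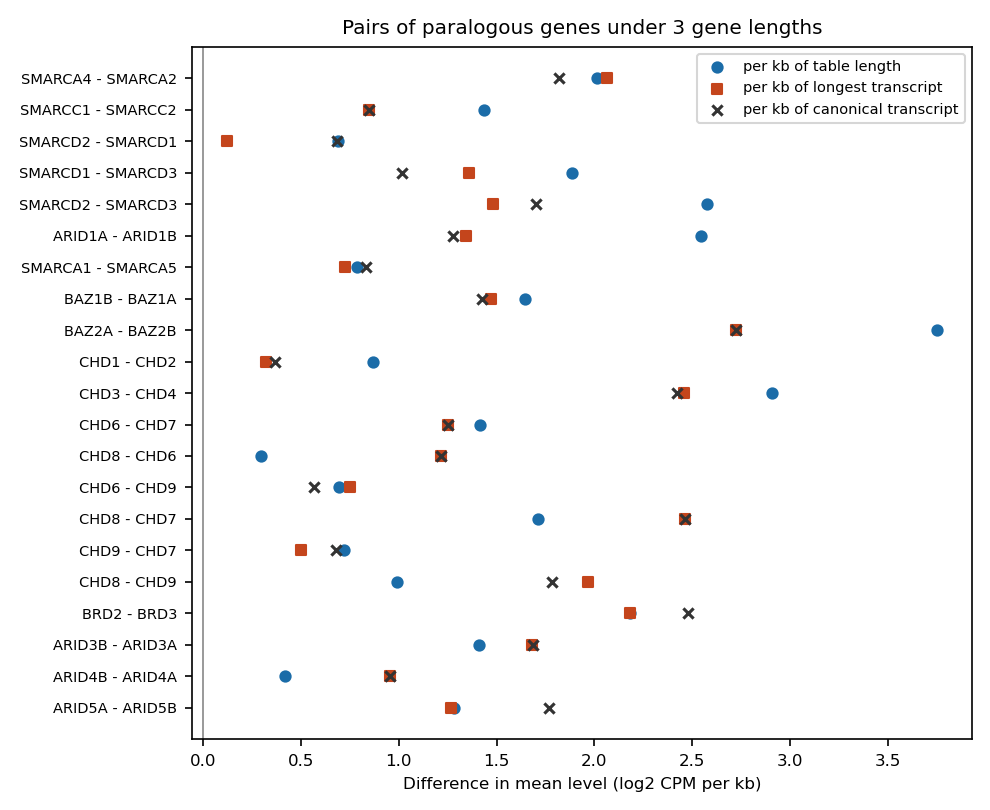
Difference in mean level (x axis, log2 CPM per kb) for 21 pairs of paralogous members, the gene named first minus the other, with circles, squares and crosses for 3 definitions of gene length. All points lie above 0, and the gap for ARID1A and ARID1B goes from 2.54 per kb of table length to 1.35 per kb of the longest transcript.

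All 21 pairs of paralogs, from 14 families, kept their order per kb of the longest transcript. Without division by length, 2 pairs changed order: SMARCA1 minus SMARCA5 was -0.11 and ARID5A minus ARID5B -0.014 log2 CPM.

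Some members shared exons with another annotated gene. For 3 members, at least 10% of the canonical transcript lay in exons of another gene on the same strand in GENCODE release 44, where a stranded library does not tell them apart. For CHD4 (chromosome 12, 6570082 to 6614524, minus strand) it was 5846 of 6491 bases, or 90.1%, shared with a readthrough gene that also covers NOP2. For SMARCE1 (chromosome 17, 40624962 to 40648654, minus strand), the high-mobility-group subunit of SWI/SNF, it was 2651 of 5150 bases, or 51.5%, shared with a gene that also covers KRT222. For INO80C it was 222 of 943 bases, or 23.5%.

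None of these partner genes was in the table. SMARCE1 had the lowest level of the SWI/SNF members, 3.70 log2 CPM. CHD4 had 2.09 log2 CPM per kb of its canonical transcript, but 5.42 if all its reads came from the 645 bases it does not share, which is the reversal given above. For SMARCE1 the same step moved the level from 1.34 to 2.38 log2 CPM per kb. The absent INO80B shares 92.8% of its canonical transcript with INO80B-WBP1, and the listed SRCAP (86.5% shared) and CHD1L (91.6% shared) were at 2.94 and 2.32 log2 CPM. MBD3, the only other listed subunit past the 10% threshold (13.5% shared), was in the top quartile of the table at 7.66 log2 CPM.

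Over all protein-coding genes the level was also lower where more was shared. The 10150 genes with no shared base had a median of 5.05 log2 CPM, and 58.7% of them lay above the median of the table. The 291 genes that shared over 50% had a median of 2.86 log2 CPM, with 20.6% above it. How reads lying in more than one gene were assigned is not given in the sources used here, and the part of this in the levels of CHD4, SMARCE1 and INO80C was not tested.

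**Figure D4:**
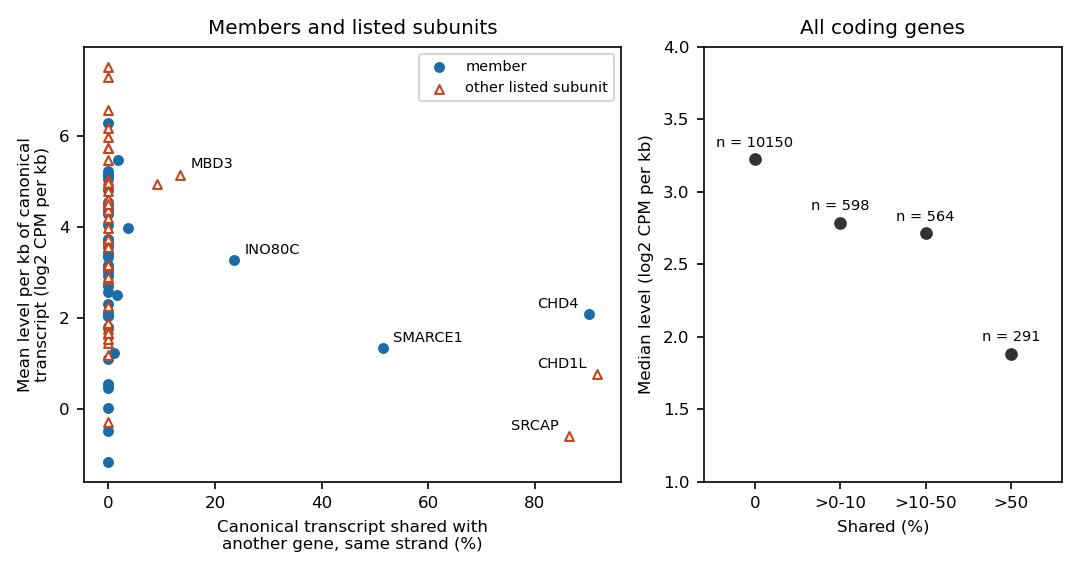
Left, mean level per kb of canonical transcript (y axis, log2 CPM per kb) against the percent of that transcript shared with another gene on the same strand, for protein-coding members (circles) and other listed genes (triangles). Right, the median of the same level over all protein-coding genes in 4 classes of sharing; the 10150 genes that share nothing have a median of 3.22 and the 291 that share over 50% a median of 1.88 log2 CPM per kb.

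SMARCE1 has a further source of ambiguity in its processed pseudogenes, which are reverse-transcribed copies of its mRNA. SMARCE1P5 (chromosome 13, 44594858 to 44596082, plus strand) lies within no other gene and was at 2.60 log2 CPM. Its 1225 bases aligned to bases 92 to 1323 of the SMARCE1 canonical transcript, nearly the whole coding sequence, with 1166 identical bases (95.2%). A stretch of 75 bases, the read length, is shown from both genes to illustrate how alike they are, with the 4 bases that differ in capitals. It is bases 127 to 201 of the SMARCE1 transcript and chr13:44594893-44594967 of the plus strand in GRCh38.
SMARCE1: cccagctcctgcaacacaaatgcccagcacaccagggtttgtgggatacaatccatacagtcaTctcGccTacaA
SMARCE1P5: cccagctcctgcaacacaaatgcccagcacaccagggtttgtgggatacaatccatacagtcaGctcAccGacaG

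This window was chosen as the first with the median number of differences, 4. That median is over windows that align without gaps within the coding sequence, where the range was 0 to 12. Of the 1151 windows of that length in the pseudogene, 34 (2.95%) were identical to SMARCE1. The rest of the 5150-base SMARCE1 transcript lies outside this alignment. Whether reads of one gene were assigned to the other was not tested.

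At the promoters the members looked like the other genes. A RefSeq promoter (GRCh38.p14, from 250 bases before to 50 after the start) was found for 37 of the 48 members. Its median GC content was 66.0%, against 65.3% for the 9764 genes of the table with a promoter. A ratio of observed to expected CpG over 0.6 was found in 30 of the 37 (81.1%), against 84.1% of those genes. The letters TATAAA, searched on both strands, occurred in 1 member, ARID5B (2.70%), against 5.25% of those genes.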

How the data were processed

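Gene expression in 2 cordycepin and 2 DMSO samples of MDA-MB-231 Fluc cells was measured by RNA-seq. Per the paper's methods, 75 bp paired-end reads were mapped to GRCh38.p13 and counted with rsubread; the submitters' processing notes name TopHat, HTSeq, DESeq, Cufflinks and hg38. Normalization and the filter on low counts are not given in the sources used here. The authors deposited 1 mean expression value per gene, as log2 CPM over all libraries, with a gene length. The deposited table also holds 4 columns of the authors' own comparison (log2 fold change, F statistic, p-value and adjusted p-value), which were not used, so cordycepin and DMSO were not compared. It holds no counts or values per library.

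Levels per kb were log2 CPM minus log2 of the length in kb, with the table length or, from GENCODE release 44, the longest or canonical transcript. Of the gene IDs, 99.7% were in that release. The table length equalled the union of exons for 73.7% of them, but for only 28 of the 48 members, and 37 members had the same start and end. The lengths and shared exons of that release need not be those used for counting. Python 3.11.15, pandas 2.3.3 and numpy 2.4.6 were used. Only the arithmetic for unions and shared bases of exons was tested on simulated data. Members and lists were chosen with earlier results of these data known. Named genes are the members, other subunits and related genes on a fixed list (39 of 42 in the table) and cell type markers. NOP2, KRT222 and WBP1 were named after the values were seen. The planned percentile of the members' median was replaced by the count above the table median. Results for 1 further member are not reported here, and it enters no summary of the members.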

Additional observations from a re-analysis of the deposited data

How the results depend on the processing

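No paired analysis was possible because the table has no column for any single library. Leaving out replicates, other normalizations and count tests were not run for the same reason. The count of 34 members above the median became 31 against protein-coding genes and 29 against genes above the lowest 25%. A move means over 1.5-fold. The complex medians moved without division by length, to 6.41 (SWI/SNF), 6.33 (ISWI), 5.58 (CHD) and 4.35 log2 CPM (INO80). Per kb of the longest transcript they moved to 4.03 (SWI/SNF) and 2.39 (CHD). Per kb of the canonical transcript, chosen after seeing the data, they moved to 4.03 (SWI/SNF), 2.41 (CHD) and 2.99 (INO80). With the other listed genes, per kb of table length, they moved to 2.44 (SWI/SNF), 3.08 (CHD) and 2.87 (INO80). Without members that share exons, also chosen later, INO80 moved to 2.58, since INO80C drops out of only 4 genes. Of 84 recomputed pair differences, 55 stayed within 1.5-fold, 26 moved and 3 reversed. Without length, the reversed ones were SMARCA1 minus SMARCA5 (-0.11) and ARID5A minus ARID5B (-0.014). CHD3 minus CHD4 (-0.91) reversed if all CHD4 reads were taken to come from its unshared bases. The unknown depth leaves all levels without an error.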
